A study of Homo sapiens with 18 samples.

Results

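Chromosome 19 carries a dense repertoire of zinc finger genes, and their promoter chromatin was examined here in leukemia cells treated with an immunoproteasome inhibitor. The genes were the 246 protein-coding genes of chromosome 19 in GENCODE release 44 (hg38) whose symbol is ZNF followed by digits and at most 1 letter, of 20046 protein-coding genes in all. Cut&Tag, in which an antibody directs the Tn5 transposase to cut and tag DNA beside a histone modification, had been carried out for H3K4me3, H3K27ac, H3K4me1 and H3K27me3 in MOLM-13 cells, a KMT2A-rearranged line established from a human acute myeloid leukemia. Cells received 100 nM PR-957 (ONX-0914), an inhibitor of the immunoproteasome subunit PSMB8, or the diluent, named DMSO in the samples, for 72 h according to the labels. With 2 libraries per treatment for each modification, 16 libraries had files. A figure legend of the study gives a shorter treatment time. All cells, treated or not, came from the same line, so any difference refers to this line alone. The 2 IgG samples were not analysed here.

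Most zinc finger genes of chromosome 19 encode proteins with a KRAB domain followed by an array of C2H2 zinc fingers. The fingers bind DNA, often within retrotransposons, and the KRAB domain recruits the corepressor TRIM28, which in turn brings the H3K9 methyltransferase SETDB1 and heterochromatin proteins. The genes lie in tandem clusters that arose by repeated duplication, and the gene bodies of many are themselves packaged in H3K9me3, a modification that was not measured. H3K4me3 and H3K27ac mark active promoters, H3K4me1 marks enhancers and promoter flanks, and H3K27me3 is deposited by the Polycomb complex at silent promoters.

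In each modification, 1 interval stood for each gene. It was chosen by its mean count over the 4 libraries, as the highest among the intervals that overlapped 2 kb on either side of a transcription start site (TSS) of the gene, so levels are given as a description without a test. An interval is a region on which the authors counted reads or fragments, and the same list serves the 4 libraries of a modification. A gene without an interval in the window is only not listed there, which does not show that the modification was missing. Values are counts divided by the effective library size of edgeR (CPM), and genes were compared with each other only as CPM per kb of interval. Total counts per library ranged from 30070119 to 44591150 for H3K4me3, from 9885836 to 14165777 for H3K27ac, from 15204186 to 30584219 for H3K4me1 and from 10032503 to 12047958 for H3K27me3. Among myeloid marker genes, 9 of 10 had an H3K4me3 interval (SPI1, CEBPA, CD33 and FLT3 among them) and MPO had none. Of the 9 markers of other cell types reported here, 2 had one (PAX5 and EPCAM), with CPM per kb of 3.38 and 0.700. By level the lists overlapped, as the myeloid genes ran from 9.66 at SPI1 to 2.68 at LYZ, 2.28 at CSF1R and 0.651 at ITGAM.

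The promoter windows of 5 genes are printed to show CpG-rich and CpG-poorer zinc finger promoters with and without the active marks. ZNF558 ranked high in both active marks, ZNF274 encodes a protein that recruits SETDB1 to zinc finger gene clusters, and ZNF446 carried the only called change. ZNF91, a repressor of SVA retrotransposons, and ZNF331, an imprinted gene, had no interval in any modification. Each sequence runs from 250 bases before to 50 bases after the TSS of the Ensembl canonical transcript, 5′ to 3′ on the strand of the gene, in hg38, with CpG dinucleotides in capitals. The windows lie at chr19:8832255-8832554 on the minus strand for ZNF558, chr19:58182811-58183110 on the plus strand for ZNF274 and chr19:58476102-58476401 on the plus strand for ZNF446. They lie at chr19:23395422-23395721 on the minus strand for ZNF91 and at chr19:53537895-53538194 on the plus strand for ZNF331.
ZNF558: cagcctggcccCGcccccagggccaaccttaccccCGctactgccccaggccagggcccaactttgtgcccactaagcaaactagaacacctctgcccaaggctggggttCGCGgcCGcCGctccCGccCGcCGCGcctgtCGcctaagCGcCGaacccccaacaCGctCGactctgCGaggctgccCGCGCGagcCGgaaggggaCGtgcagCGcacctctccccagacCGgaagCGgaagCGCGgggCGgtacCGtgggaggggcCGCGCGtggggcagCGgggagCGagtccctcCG
ZNF274: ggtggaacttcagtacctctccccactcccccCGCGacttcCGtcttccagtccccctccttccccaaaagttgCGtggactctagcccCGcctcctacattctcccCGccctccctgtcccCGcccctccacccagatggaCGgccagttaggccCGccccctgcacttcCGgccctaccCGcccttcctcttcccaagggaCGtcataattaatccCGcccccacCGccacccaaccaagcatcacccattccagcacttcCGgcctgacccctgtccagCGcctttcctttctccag
ZNF446: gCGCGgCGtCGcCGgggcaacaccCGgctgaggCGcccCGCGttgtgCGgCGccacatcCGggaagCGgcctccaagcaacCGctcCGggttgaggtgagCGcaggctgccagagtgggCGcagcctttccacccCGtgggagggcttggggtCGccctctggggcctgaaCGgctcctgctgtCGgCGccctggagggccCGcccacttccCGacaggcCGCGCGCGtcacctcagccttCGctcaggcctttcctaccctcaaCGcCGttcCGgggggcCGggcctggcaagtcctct
ZNF91: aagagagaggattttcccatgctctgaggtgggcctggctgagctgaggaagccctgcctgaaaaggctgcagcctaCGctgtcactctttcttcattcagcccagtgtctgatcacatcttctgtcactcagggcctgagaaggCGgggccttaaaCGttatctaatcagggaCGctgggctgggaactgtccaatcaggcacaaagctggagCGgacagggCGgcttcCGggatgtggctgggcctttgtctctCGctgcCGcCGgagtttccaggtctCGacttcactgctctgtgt
ZNF331: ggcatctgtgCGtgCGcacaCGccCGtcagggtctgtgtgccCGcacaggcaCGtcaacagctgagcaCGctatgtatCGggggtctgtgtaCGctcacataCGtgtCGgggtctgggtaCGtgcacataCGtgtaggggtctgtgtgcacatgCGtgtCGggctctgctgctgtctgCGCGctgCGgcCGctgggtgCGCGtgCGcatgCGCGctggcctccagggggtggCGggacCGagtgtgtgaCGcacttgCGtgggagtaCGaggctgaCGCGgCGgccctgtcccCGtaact
The windows of ZNF558, ZNF446 and ZNF331 held 34, 33 and 33 CpG dinucleotides. Those of ZNF274 and ZNF91 held 16 and 11, while over the windows of all 246 genes the count ran from 2 to 49.

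H3K4me3 and H3K27ac were listed at most, but not all, of the zinc finger promoters, and H3K27me3 at almost none. An H3K4me3 interval was present for 151 of the 246 genes (61.4%), against 80.5% of the 262 ZNF genes on other chromosomes, 65.7% of the 1230 other genes of chromosome 19 and 63.8% of all protein-coding genes. For H3K27ac it was 129 genes (52.4%), against 74.8%, 67.7% and 60.3% in the same order. For H3K4me1 it was 32 genes (13.0%), against 34.7%, 60.3% and 43.4%. For H3K27me3 it was 3 genes (1.22%), against 9.16%, 23.4% and 19.8%. These shares are descriptions of a single cell line and were not tested. Neighboring zinc finger genes can share an interval, so the 151 genes rested on 141 distinct H3K4me3 intervals, the 129 on 121 for H3K27ac and the 32 on 29 for H3K4me1.

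**Figure D1:**
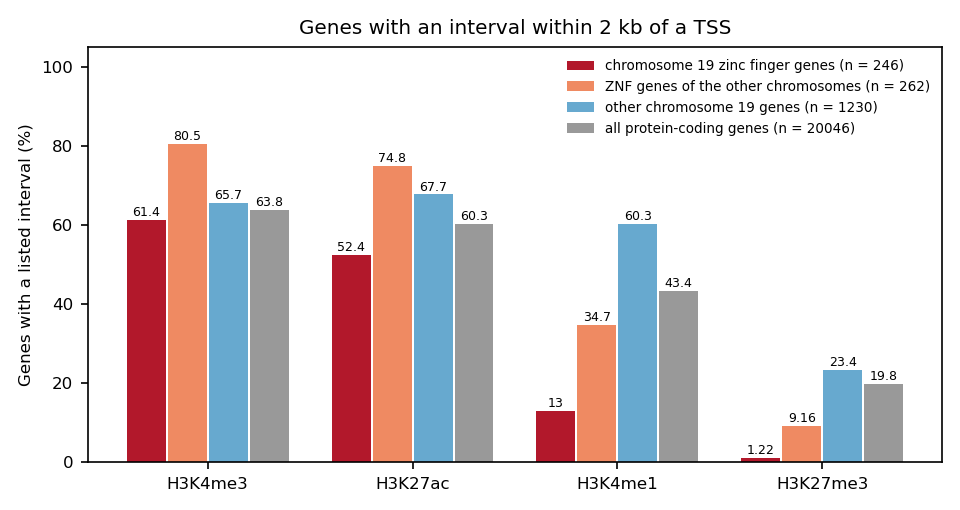
Share of genes (%) with a listed interval within 2 kb of a TSS, for each modification and for 4 gene groups, with the share printed above each bar. The chromosome 19 zinc finger genes have the lowest bar in each modification, from 61.4% for H3K4me3 to 1.22% for H3K27me3.

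The marks combined in few ways. H3K4me3 and H3K27ac without H3K4me1 or H3K27me3 was the most frequent combination, with 98 genes (39.8%), followed by 94 genes (38.2%) with an interval in none of the 4 modifications. Another 30 genes (12.2%) carried H3K4me3, H3K27ac and H3K4me1, and 20 (8.13%) carried H3K4me3 alone. Given H3K4me3, 85.4% of the zinc finger genes had H3K27ac and 21.2% had H3K4me1. Among ZNF genes of other chromosomes with H3K4me3 these shares were 91.9% and 40.8%. Of the 95 zinc finger genes without H3K4me3, 1 had H3K27me3 (1.05%), against 7 of 51 ZNF genes on other chromosomes (13.7%). Zinc finger promoters of chromosome 19 without H3K4me3 thus rarely had a Polycomb interval in these lists.

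The choice of interval followed the TSS closely for the active marks. The chosen interval held a TSS of its own gene for 150 of 151 genes in H3K4me3, 129 of 129 in H3K27ac, 23 of 32 in H3K4me1 and 3 of 3 in H3K27me3. The exception in H3K4me3 was ZNF324, whose chosen interval holds the TSS of its neighbor ZNF446. The TSS of at least 1 further gene lay inside the chosen interval for 48 of the 151 genes in H3K4me3, 37 of 129 in H3K27ac and 13 of 32 in H3K4me1, and the signal of such an interval cannot be assigned to a single gene. The gene just outside the window was ZNF358 for H3K4me3, with its nearest interval at 5052 bp, and ZNF175 for H3K27ac at 4793 bp. For H3K4me1, the nearest interval of ZNF324 lay at 1729 bp inside the window and that of ZNF846 at 2048 bp outside it. For H3K27me3, that of ZNF653 lay outside at 4058 bp.

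At the level of single genes, H3K4me3 ranged 20.4-fold between the highest and the lowest zinc finger promoter. The highest was ZNF576 with 11.6 CPM per kb, in an interval that also holds the TSS of IRGQ and SRRM5. Its CPM was 67.8 and 69.7 with DMSO and 56.5 and 66.4 with PR-957. ZNF558, which regulates the mitophagy gene SPATA18, followed with 9.88 CPM per kb and CPM of 28.0 and 29.5 in DMSO and 27.2 and 30.7 in PR-957, and ZNF584 had 9.75 CPM per kb. ZNF576 was lower in both PR-957 libraries than in either DMSO library, whereas the groups overlapped for ZNF558. The difference at ZNF576 did not pass the test (log2 fold change -0.16, edgeR adjusted p = 0.539). Its log2 fold change was -0.051 when the first PR-957 library was left out. The lowest were ZNF132 with 0.641 CPM per kb, ZNF426 with 0.633 and ZNF709 with 0.570, where no library exceeded 1.31 CPM and the groups overlapped for all 3 genes. The median over the 151 genes was 4.38 CPM per kb, against 4.57 over all protein-coding genes with an interval and 4.22 over ZNF genes of other chromosomes. The median width of the chosen intervals was 2960 bp, against 5111 bp at other genes of chromosome 19 and 3999 bp over all genes.

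In cluster D, described below, the levels of 3 of the 9 marked genes were read singly. ZNF101 had an H3K4me3 CPM of 14.8 and 14.2 with DMSO and 15.7 and 13.1 with PR-957, and ZNF708 had 11.9 and 13.0 against 13.1 and 12.2. Both sat near the middle of the 151 genes per length, at ranks 80 and 76. ZNF708 was the highest of the 9 genes per length, and the median of the 9 was 3.11 CPM per kb. ZNF253, at rank 143, had only 1.81 and 2.35 CPM with DMSO and 1.97 and 1.85 with PR-957. The groups overlapped for all 3 genes.

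H3K27ac was highest at ZNF627 with 18.5 CPM per kb, ZNF558 with 18.3 and ZNF274 with 14.6. At ZNF274 the H3K27ac CPM was 44.3 and 45.7 in DMSO and 47.2 and 52.5 in PR-957. At ZNF558 it was 58.1 and 52.0 in DMSO and 60.8 and 59.0 in PR-957. Both were higher in each PR-957 library than in either DMSO library, and neither difference passed the test (edgeR adjusted p = 0.691 for ZNF274 and 0.785 for ZNF558). The H3K27ac interval of ZNF627 holds its canonical TSS, while its chosen H3K4me3 interval lies 35884 bp from that TSS and covers the TSS of ELOF1, a transcription elongation factor, so these values describe different promoters. The median H3K27ac level was 4.27 CPM per kb, against 3.99 over all genes. Over the 129 genes with both marks, the log2 CPM per kb of H3K4me3 and H3K27ac correlated with Pearson's r = 0.639 across genes, which share libraries, base composition and in part intervals and are not independent replicates.

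H3K4me1 was lower per length, with a median of 1.11 CPM per kb against 1.29 over all genes. The highest value belonged to ZNF414 with 3.82 CPM per kb, in an interval of 29072 bp that also covers the TSS of PRAM1, an adaptor gene of myeloid cells. ZNF490 and ZNF791 followed with a shared interval and 2.10 CPM per kb.

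Of the 12 genes named for a known function, 5 had no listed interval in any modification, as had 94 of all 246 genes (38.2%). ZNF91 and ZNF93, which repress SVA and L1 elements, had no interval in any of the 4 modifications, and their nearest H3K4me3 intervals lay 290244 bp and 33651 bp from a TSS. ZNF382, ZNF568 and ZNF331 had none either. ZNF274 had 7.24 CPM per kb of H3K4me3 and ZNF420, a regulator of p53, had 6.27. ZNF224 had 5.80, ZNF675, an inhibitor of TRAF6 signaling, 3.11 and ZNF175, a repressor of the HIV promoter in macrophages, 2.97. ZNF350, a partner of BRCA1, was low at 1.04 CPM per kb, with CPM of 2.28 and 1.54 in DMSO and 1.18 and 1.78 in PR-957. ZNF536, a neuronal zinc finger gene without a KRAB domain, was lower still at 0.680 CPM per kb.

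Along the chromosome, the genes fell into 9 clusters of 5 or more separated by gaps of over 1 Mb, here named A to I in order from the short-arm end, and 11 scattered genes. Cluster D, at chr19:19668796-24129968 in the short arm beside the centromere, held 37 zinc finger genes and 3 other protein-coding genes. In it, 9 of the 37 genes (24.3%) had an H3K4me3 interval and the same 9 had an H3K27ac interval, namely ZNF101, ZNF253, ZNF429, ZNF431, ZNF493, ZNF506, ZNF675, ZNF708 and ZNF714. No gene of cluster D had H3K4me1 or H3K27me3. Intervals covered 0.679% of the sequence of cluster D for H3K4me3, 0.514% for H3K27ac, 0.132% for H3K4me1 and 0.0% for H3K27me3, against 8.45%, 14.1%, 14.6% and 6.12% of the whole chromosome. The 9 genes ranged from 1.06 CPM per kb of H3K4me3 at ZNF253 to 4.38 at ZNF708, with a median of 3.11.

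The other clusters had larger shares of marked genes. All 5 genes of cluster A had both active marks, among them ZNF554 and ZNF555. H3K4me3 was present for 12 of 15 genes in cluster B, 17 of 25 in C, 3 of 5 in E, 18 of 26 in F, 16 of 24 in G and 45 of 59 in I, the cluster at the long-arm end. Cluster H was lower, with 19 of 39 genes (48.7%) for H3K4me3 and 12 of 39 (30.8%) for H3K27ac. In cluster G, 6 of the 16 genes with H3K4me3 had no H3K27ac interval, namely ZNF45, ZNF221, ZNF222, ZNF234, ZNF235 and ZNF283. H3K4me1 was listed for 14 of the 59 genes in cluster I and for 5 of the 11 scattered genes, but for none in clusters A, D and E. H3K27me3 intervals covered 0.0% of clusters A, C, D, E and F.

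CpG content was read from the same promoter windows for every gene. The windows lie at the canonical TSS, whereas an H3K4me3 interval counted within 2 kb of any TSS of the gene. The chosen interval held the canonical TSS for 141 of the 151 genes, so some windows are not at the marked promoter. The median CpG count of the 300-base window was 21 for the 151 genes with H3K4me3 and 17 for the 95 without, while over all protein-coding genes it was 28 with and 8 without. Cluster D had the lowest median, with 10 CpG. Among zinc finger genes with 25 or more CpG, 47 of 71 (66.2%) had H3K4me3, against 89.6% of ZNF genes on other chromosomes and 84.1% of all genes in that band. With 5 to 14 CpG, 27 of 57 (47.4%) had it, against 56.7% and 38.0%. ZNF331, with the 33 CpG shown above, is in the first of these bands and had no interval, while ZNF274 with 16 CpG had H3K4me3 and H3K27ac. Across the 151 genes the CpG count and the log2 H3K4me3 CPM per kb correlated with Pearson's r = 0.265, as a description across genes. Sequences repeated elsewhere on the chromosome were rare in these windows. A 100-base word shared with another place on chromosome 19 was found in 2 of 151 windows of genes with H3K4me3. It was found in 1 of 95 windows of genes without.

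Short motifs were counted in the same windows. CCGGAAG, searched on both strands, was found in 110 of 246 windows (44.7%), against 31.7% of ZNF genes on other chromosomes and 14.1% of all protein-coding genes. It occurred in 39.7% of the windows of genes with H3K4me3 and in 52.6% of the windows of genes without. CCAAT was found in 52.8% of the windows against 36.1% of all genes, and TATAAA in 2.85% against 9.71%. ATGGCGG was found in 8.94% against 7.81%, GCATGCG in 5.28% against 5.11% and CTCGCGA in 2.03% against 3.43%. A match is only a string of letters, and whether a factor binds there was not measured.

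PR-957 was compared with DMSO by edgeR's quasi-likelihood test within each modification, fitted on all listed intervals and adjusted over all of them. Nothing says that the libraries came from separate cultures, so the p-values measure only the spread between these libraries. A difference may also reflect fewer cells carrying a mark or less of it per cell, which bulk libraries cannot tell apart.

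For H3K4me3 at the zinc finger promoters, no change was detectable at this depth. Of the 151 tested genes 0 passed an adjusted p of 0.05 in edgeR, and 0 of the 144 with an adjusted p from DESeq2, against 134 of 59229 tested intervals in the genome (0.226%), and 12 had an unadjusted p below 0.05 (7.95%, against 7.52% of all intervals). The log2 fold changes ran from -0.42 to 0.81 with a median of -0.010, and 69 genes were higher and 82 lower. The median standard error was 0.10, and both PR-957 libraries lay on one side of both DMSO libraries for 52 genes (34.4%), against 36.6% of all tested intervals. Summed over the 141 distinct intervals, the CPM was 2333 and 2332 in DMSO and 2240 and 2359 in PR-957, so that the groups overlapped.

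The genes with the smallest p in H3K4me3 were ZNF805, ZNF480 and ZNF274, of which none was called. ZNF805 had a CPM of 14.0 and 13.0 in DMSO and 11.1 and 11.1 in PR-957 (log2 fold change -0.29, standard error 0.10, edgeR adjusted p = 0.3504). ZNF480 had 10.9 and 11.2 in DMSO and 8.99 and 9.08 in PR-957 (log2 fold change -0.29, standard error 0.12, edgeR adjusted p = 0.465). ZNF274 went the other way, with 19.9 and 20.9 in DMSO and 22.7 and 24.3 in PR-957 (log2 fold change 0.20, standard error 0.083, edgeR adjusted p = 0.474). In each of the 3 genes the groups did not overlap.

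The extremes of the H3K4me3 fold changes, named after their values were seen, lay at weakly marked promoters. ZNF836 had 5.95 and 5.74 CPM with DMSO and 4.20 and 4.52 with PR-957 (log2 fold change -0.42, standard error 0.18, edgeR adjusted p = 0.501). ZNF614 had 0.448 and 0.721 against 1.57 and 0.462, so that the highest fold change of 0.81 rested on 1 PR-957 library and overlapping groups. By cluster, the median H3K4me3 log2 fold change lay between -0.072 in cluster G, where 14 of 16 genes were lower, and 0.034 in cluster F, where 6 of 18 were. None of the genes in either cluster was called.

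For H3K27ac no change was detectable either, and the error was wider. Of the 129 tested genes 0 passed in edgeR, and 0 of the 11 with an adjusted p from DESeq2, against 177 of 74510 intervals in the genome (0.238%), and 14 had an unadjusted p below 0.05 (10.9%, against 8.01%). The median log2 fold change was 0.0087, with a range from -0.61 to 1.32, a median standard error of 0.18, and 66 genes higher and 63 lower. The groups did not overlap for 57 genes (44.2%, against 36.9% of all tested intervals). The summed CPM over 121 distinct intervals was 1826 and 1843 in DMSO and 1846 and 1881 in PR-957.

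The smallest H3K27ac p belonged to ZNF714 of cluster D, with a CPM of 13.0 and 8.77 in DMSO and 6.24 and 8.02 in PR-957. This gave a log2 fold change of -0.61 with a standard error of 0.20 (edgeR adjusted p = 0.258), and the DMSO libraries differed from each other by more than the gap between the groups. ZNF420 had 15.3 and 19.7 in DMSO and 11.8 and 14.2 in PR-957 (log2 fold change -0.40, standard error 0.16, edgeR adjusted p = 0.431), while its H3K4me3 log2 fold change was 0.084. The highest fold change, of ZNF491, rested on a CPM of 0.681 and 1.71 in DMSO and 3.62 and 2.25 in PR-957. This gave a log2 fold change of 1.32 with a standard error of 0.53 (edgeR adjusted p = 0.434), and the H3K4me3 interval at the same promoter had one of 0.098.

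In H3K4me1 a single zinc finger gene was called, ZNF446, and the values of most others lay below DMSO without passing the test. Of the 32 genes with an interval, 25 were lower and 7 higher in PR-957, with a median log2 fold change of -0.19, against -0.0011 over all tested intervals, -0.098 over ZNF genes of other chromosomes, -0.16 over other genes of chromosome 19 and -0.077 over all protein-coding genes. Other genes of chromosome 19 were lower in 77.6% of cases and the zinc finger genes in 78.1%. With the trend on GC content removed, the median of the zinc finger genes was -0.058 and that of the other chromosome 19 genes -0.048. The summed CPM over 29 distinct intervals was 312 and 329 in DMSO and 270 and 294 in PR-957, and these groups did not overlap. The wide interval of ZNF414, whose values are given below, made up a large part of these sums and of the gap between them. The overlapping intervals of ZNF446 and ZNF324 both count in the sums. The separation of the sums therefore does not show a change shared by the genes.

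The 1 called gene of the 32 stands against 2099 of 108158 intervals in the genome (1.94%), of which 758 were lower (0.701%). ZNF446 encodes a protein with KRAB and SCAN domains, and its interval lies at chr19:58473023-58477536. Its CPM was 7.28 and 10.2 in DMSO and 5.46 and 6.26 in PR-957 (log2 fold change -0.56, standard error 0.17, edgeR adjusted p = 0.0461). Both PR-957 libraries were lower than both DMSO libraries, but the DMSO libraries themselves differed by more than the gap between the groups. The call was lost in DESeq2 (adjusted p = 0.605), with the GC trend removed (adjusted p = 0.1901), with library size only (adjusted p = 0.0810), with cyclic loess offsets (adjusted p = 0.0759), with a mean count of at least 50 (adjusted p = 0.0596), with the interval of highest mean count per kb (adjusted p = 0.135) and when the second DMSO library (adjusted p = 0.578), the first PR-957 library (adjusted p = 0.281) or the second PR-957 library (adjusted p = 0.0680) was left out. The adjusted p of this gene under the alternatives was 0.0399 to 0.605. Its log2 fold change stayed below 0 in all of them, at -0.57 in DESeq2, -0.51 with library size only and -0.43 with the GC trend removed. It was -0.30 without the second DMSO library and -0.79 without the first. In the other marks, the interval of ZNF446 had a log2 fold change of -0.18 in H3K4me3 (edgeR adjusted p = 0.541) and -0.20 in H3K27ac (edgeR adjusted p = 0.809).

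The next genes in H3K4me1 did not pass. ZNF324 was represented by an overlapping interval with 6.94 and 10.1 CPM in DMSO and 5.52 and 6.22 in PR-957 (log2 fold change -0.52, standard error 0.17, edgeR adjusted p = 0.0695), so that it is no independent observation beside ZNF446. ZNF490 and ZNF791, which are transcribed in opposite directions from a shared promoter region, shared an interval with 12.4 and 12.8 CPM in DMSO and 8.73 and 10.4 in PR-957 (log2 fold change -0.39, standard error 0.14, edgeR adjusted p = 0.105). ZNF414, the highest of the genes in H3K4me1, had 124 and 118 CPM in DMSO and 97.2 and 104.8 in PR-957 (log2 fold change -0.26, standard error 0.13, edgeR adjusted p = 0.274). In all of these the PR-957 libraries were lower than the DMSO libraries. Values above DMSO were found for ZNF628 (log2 fold change 0.35), ZNF497 (0.26) and ZNF584 (0.15), and none of these was called either. All 3 genes with H3K4me1 in cluster G were lower, with a median of -0.44, as were the 3 in cluster H, with a median of -0.27, while in cluster I 11 of 14 were lower, with a median of -0.16. The groups did not overlap for 18 of the 32 genes (56.2%, against 46.7% of all tested intervals and 55.9% of other chromosome 19 genes).

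**Figure D2:**
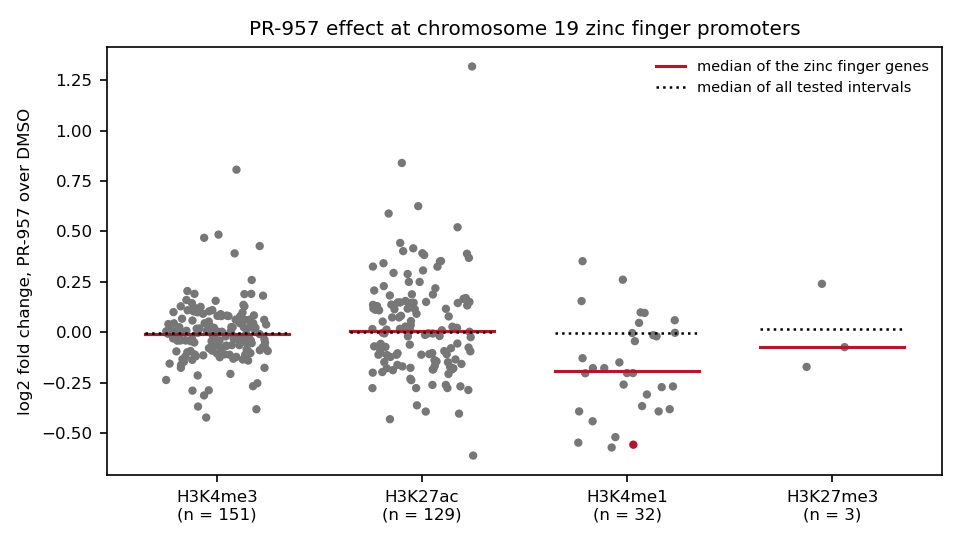
Log2 fold change of PR-957 over DMSO for each chromosome 19 zinc finger gene (points) in the 4 modifications, with the median of these genes (solid line) and of all tested intervals (dotted line). The only called gene, ZNF446 in H3K4me1 at -0.56, is drawn in red, and the H3K4me1 median lies at -0.19.

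H3K27me3 concerned 3 zinc finger genes, ZNF536, ZNF574 and ZNF358, and 0 of them were called, against 1882 of 31806 intervals in the genome (5.92%), of which 1620 were lower (5.09%). DESeq2 called 0 of the 2 to which it gave an adjusted p, and 1 of the 3 genes had an unadjusted p below 0.05. Direction depended on the scaling for this modification, as library size alone gave 1521 intervals higher and 698 lower, and shifted the genome-wide median by 0.16 on the log2 scale against TMM. The counts of chromosome 19 made up 7.22% and 7.21% of all H3K27me3 counts in DMSO and 8.55% and 8.33% in PR-957, and its part in the values below was not tested.

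ZNF536 stood out for a wide Polycomb domain. Its chosen interval, chr19:30216706-30238767, spans 22061 bp around an upstream TSS and had a CPM of 124 and 122 in DMSO and 112 and 107 in PR-957 (log2 fold change -0.17, standard error 0.066, edgeR adjusted p = 0.117). Both PR-957 libraries were lower, but with library size only the log2 fold change was -0.0096. The low H3K4me3 interval of ZNF536 lies inside this domain, with 1.61 and 1.297 CPM in DMSO and 2.53 and 0.958 in PR-957, and the groups overlapped. The H3K27me3 interval of ZNF574 had 19.4 and 21.1 CPM in DMSO and 24.5 and 23.5 in PR-957 (log2 fold change 0.24, standard error 0.13, edgeR adjusted p = 0.3903). With library size only the log2 fold change of ZNF574 was 0.40 (edgeR adjusted p = 0.0506), and with the interval of highest mean count per kb it was 0.12. It also holds the TSS of GRIK5, a kainate receptor subunit gene, and does not overlap the H3K4me3 interval of ZNF574, which had 34.4 and 35.0 CPM in DMSO and 34.6 and 34.7 in PR-957. ZNF358, which had no other mark, had 15.97 and 18.15 CPM in DMSO and 15.02 and 17.4 in PR-957, with overlapping groups and a log2 fold change of -0.074 (standard error 0.15, edgeR adjusted p = 0.889), which turned to 0.090 with library size only.

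Over whole gene bodies, H3K27me3 intervals were listed for the same 3 genes (1.22%) and for no other of the 246, against 8.40% of ZNF genes on other chromosomes, 23.7% of other chromosome 19 genes and 21.1% of all protein-coding genes. The 3 bodies held 40 intervals, 32 in ZNF536, 4 in ZNF358 and 4 in ZNF574, which overlap one another. In edgeR 0 of the 40 were called, against 1548 of 20573 tested intervals over all protein-coding gene bodies (7.52%), of which 1332 were lower, and 4 of the 40, all in ZNF536, had an unadjusted p below 0.05, while DESeq2 called 0 of the 6 to which it gave an adjusted p. The median log2 fold change was 0.044, against -0.0027 over all protein-coding gene bodies. On the same chromosome, 60 of 1100 tested intervals over other chromosome 19 gene bodies were called and all of them were higher. Medians were 0.044 in ZNF536, -0.062 in ZNF358 and 0.22 in ZNF574. The median of ZNF536 lay above 0, although the interval chosen for its promoter had a log2 fold change of -0.17. Its 4 intervals with an unadjusted p below 0.05 had 99.9 to 124 CPM per library and log2 fold changes from -0.19 to -0.17. All its other intervals had at most 17.8 CPM in any library and went in both directions. The medians of ZNF536 and of the 40 intervals thus rest mainly on weakly covered, overlapping intervals.

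**Figure D3:**
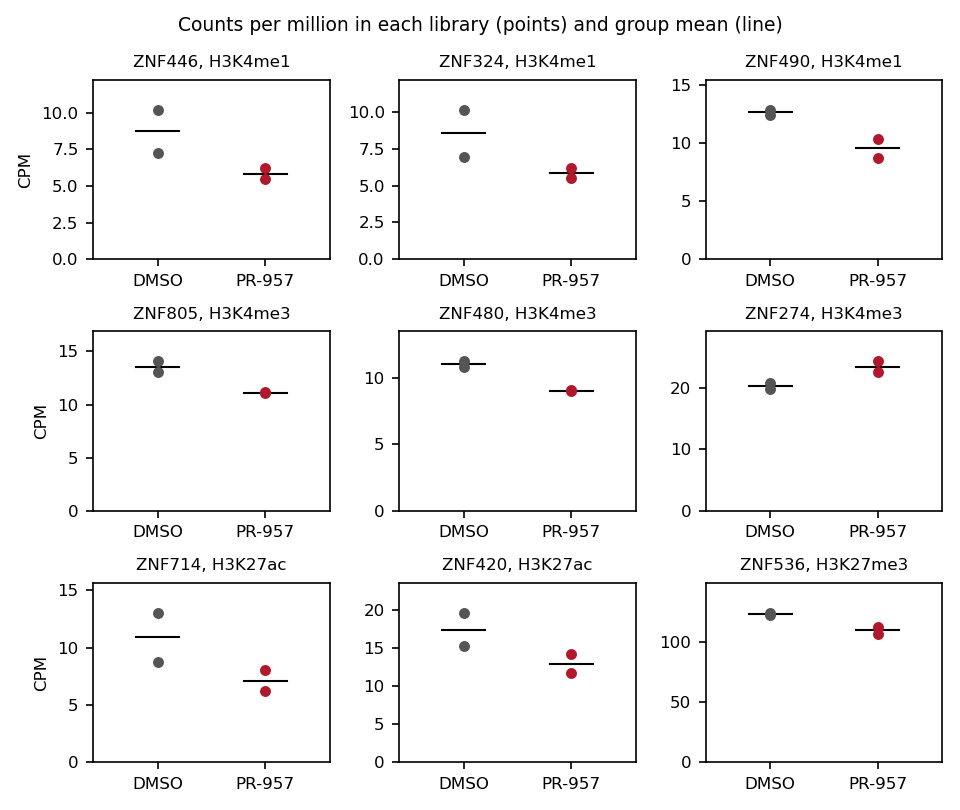
CPM in each DMSO and PR-957 library (points) with the mean of 2 libraries (line) for 9 of the named gene and modification pairs, each panel with its own axis from 0. The pairs were picked after their values were seen and have groups that do not overlap, unlike other named pairs such as ZNF558 in H3K4me3 and ZNF358 in H3K27me3, and ZNF446 in H3K4me1 is the only one that was called.

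The genes of the KRAB repression pathway were read from the same fits. Of 21 genes, among them TRIM28, SETDB1, CBX1, CBX3, CBX5, DNMT1 and UHRF1, 19 had an H3K4me3 interval and 0 were called, against 0.226% of all tested intervals, with a median log2 fold change of -0.028 and 2 unadjusted p-values below 0.05, a level that 7.52% of all intervals reached. For H3K27ac 19 had an interval and 0 were called, against 0.238%, with a median of 0.0019 and 3 unadjusted p-values below 0.05, against 8.01% of all intervals. TRIM28, whose gene also lies on chromosome 19, had 74.95 and 71.1 CPM of H3K4me3 in DMSO and 72.0 and 71.5 in PR-957, and the groups overlapped. SETDB1 had 6.58 and 6.75 in DMSO and 7.35 and 6.80 in PR-957, without overlap but far from the threshold (edgeR adjusted p = 0.947). In H3K4me1, 1 of 11 was called, against 1.94% of all tested intervals. The called gene was UHRF1, which guides DNMT1 to newly replicated DNA and also lies on chromosome 19. Among other chromosome 19 genes with an H3K4me1 interval, 3.2% were called and 77.6% were lower. UHRF1 had 47.7 and 48.0 CPM in DMSO and 35.1 and 35.4 in PR-957. This gave a log2 fold change of -0.44 with a standard error of 0.12 (edgeR adjusted p = 0.0195). The call was lost when the first DMSO library (adjusted p = 0.0529), the first PR-957 library (adjusted p = 0.282) or the second PR-957 library (adjusted p = 0.194) was left out, with the GC trend removed (adjusted p = 0.154), in DESeq2 (adjusted p = 0.148), with a replicate block (adjusted p = 0.09996) and with the interval of highest mean count per kb (adjusted p = 0.107). Under the alternatives the adjusted p of UHRF1 was 0.00803 to 0.282, while its log2 fold change stayed between -0.45 and -0.33.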

How the data were processed

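Cut&Tag counts of 16 MOLM-13 libraries were analysed. Reads were aligned by the authors to hg38, and the submitters' processing notes name Trimmomatic 0.39, Bowtie2 2.2.5, Picard 2.27.1, SAMtools 1.7, SEACR 1.3 and deepTools 3.5.1. The study's methods name MACS2 or SEACR for peak calling. Which of them made these lists, the counter and the handling of duplicates are not given in the sources used here. Deposited values are the authors' whole-number counts per interval, without normalization, and intervals overlap, so they are not independent.

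Intervals were kept by filterByExpr (minimum count 10), normalized by TMM and tested with edgeR 4.0.16 (quasi-likelihood, R 4.3.3), per modification and without a replicate block, with Benjamini-Hochberg adjustment at 0.05. The script was tested on simulated data. Annotation was GENCODE release 44, read in Python 3.11.15 with pysam 0.24.0 for the genome. The members and lists were chosen with earlier results of these data known.

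Named per modification were up to 5 genes per direction with the smallest p among those called, or where fewer than 3 were called the 3 with the smallest p, the 3 with the highest CPM per kb (and the 3 lowest for H3K4me3), and 12 genes of known function. Other zinc finger genes, such as those at the window's edge or listed by cluster, were named after their values were seen. With 2 libraries against 2 an exact permutation test cannot go below p = 0.333. Alternatives were DESeq2 1.42.0, other scalings (cyclic loess from limma 3.58.1), filters, windows and leaving out each library. Depth limits precision, with a median mean count of 452 per chosen H3K4me3 interval, 132 for H3K27ac, 146 for H3K4me1 and 248 for H3K27me3. A further marker of another cell type is not reported here.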

Additional observations from a re-analysis of the deposited data

How the results depend on the processing

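The count of zinc finger genes called was 0 for H3K4me3, H3K27ac and H3K27me3 promoters under every alternative. For H3K4me1 the call of ZNF446 was kept with RLE size factors, without the count filter, with the replicate block, with a window of 1 kb and with each distinct interval counted once. The count was 0 with library size only, cyclic loess offsets, the GC trend removed, DESeq2, a mean count of at least 50 or the highest mean count per kb, 2 with a window of 5 kb, where ZNF324 takes the interval of ZNF446, and 0 to 1 in the fits that each left out 1 library. Over gene bodies, 1 H3K27me3 interval was called without the count filter, and 0 to 1 in the fits without 1 library. The called interval lay in ZNF536 (log2 fold change -0.20, edgeR adjusted p = 0.0491 without the count filter, and -0.24, adjusted p = 0.0424 without PR-957 replicate 1).

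Where 1 library was left out, the median log2 fold change ran from -0.067 to 0.030 for H3K4me3. It ran from -0.0053 to 0.042 for H3K27ac and from -0.30 to -0.12 for H3K4me1. For H3K27me3 it ran from -0.17 to 0.014 at promoters and from -0.062 to 0.023 over gene bodies. With the GC trend removed the H3K4me1 median was -0.058. With library size only the H3K27me3 median was 0.090 at promoters and 0.21 over gene bodies. With a window of 5 kb it was 0.080 at promoters. The cause was not tested.

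Same-numbered libraries deviated together with a correlation of 0.17 for H3K4me3 and of -0.0089, 0.0068 and -0.0069 for H3K27ac, H3K4me1 and H3K27me3. With 2 pairs and no label that ties them, the libraries were taken to share only a number. The replicate block moved the H3K4me3 calls over all intervals from 134 to 161. It called the same number of zinc finger genes in each modification, with an H3K4me1 median of -0.20, while UHRF1 lost its call in it (adjusted p = 0.09996). Precision was limited at intervals with few counts, where the standard error was 0.46 to 0.53 at ZNF132, ZNF426, ZNF709 and ZNF491 and reached 0.85 in an H3K27me3 body interval of ZNF536.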
